A study of Drosophila melanogaster with 3 samples.

Results

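In the S2 cell line of Drosophila melanogaster, 224 regions bound by an antibody against dH1K27me2 lay on chromosome arms 2L, 3R and X and on chromosome 4. They were all the peaks listed for these 4 sequences, without the heterochromatic scaffolds named Het, and made up 4.71% of the 4751 peaks of the study. Arm 2L held 146, 3R held 44, X held 28 and chromosome 4 held 6. Arms 2R and 3L held 231 and 296 further peaks. Most of the whole list therefore lay on other sequences, and values of the whole list below mostly describe peaks outside these arms and chromosome 4. The study immunoprecipitated chromatin of wild-type S2 cells, with no treatment given, using a home-made rabbit antibody against dH1K27me2 in 2 samples, and compared them with 1 input sample of genomic DNA from the same line. The name of the list says that the immunoprecipitations were merged before peaks were called. It matches the title of the first one only in part, so it is not known whether every run of that sample was included. All values below therefore describe 1 pooled list from 1 cell line, with no replicate error, no test between samples and unknown read depth.

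dH1 is the somatic linker histone of Drosophila. Linker histones bind the nucleosome where DNA enters and leaves it and help chromatin to fold. The mark studied here is the dimethylated form of lysine 27 of dH1. In flies, the DNA next to the centromere is packed as heterochromatin rich in repeats, whereas most of the outer arms is gene-rich euchromatin. Chromosome 4 is a small chromosome with many heterochromatin features along its length. The genes and repeats under the peaks were not analysed here.

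Each peak has a position, a width and a score. The score is the authors' own, in a list whose peak names are those of the peak caller MACS, and is used only to describe and rank peaks of the list. Positions are 1-based and on the dm3 build. On 2L and on X the centromere is at the right end, and on 3R at the left, and the proximal region was taken as the 2 Mb next to it. On 2L and X this was measured from the end of the last peak, and on 3R from the first base. The proximal region of 2L held 120 peaks, called the 2L block below. The outer arms of 2L, 3R and X held 84 peaks, of which 54 had no other peak within 50 kb and are called isolated, and 30 were closer to a neighbour. The proximal regions of 3R and X held 5 and 9 peaks.

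**Figure D1:**
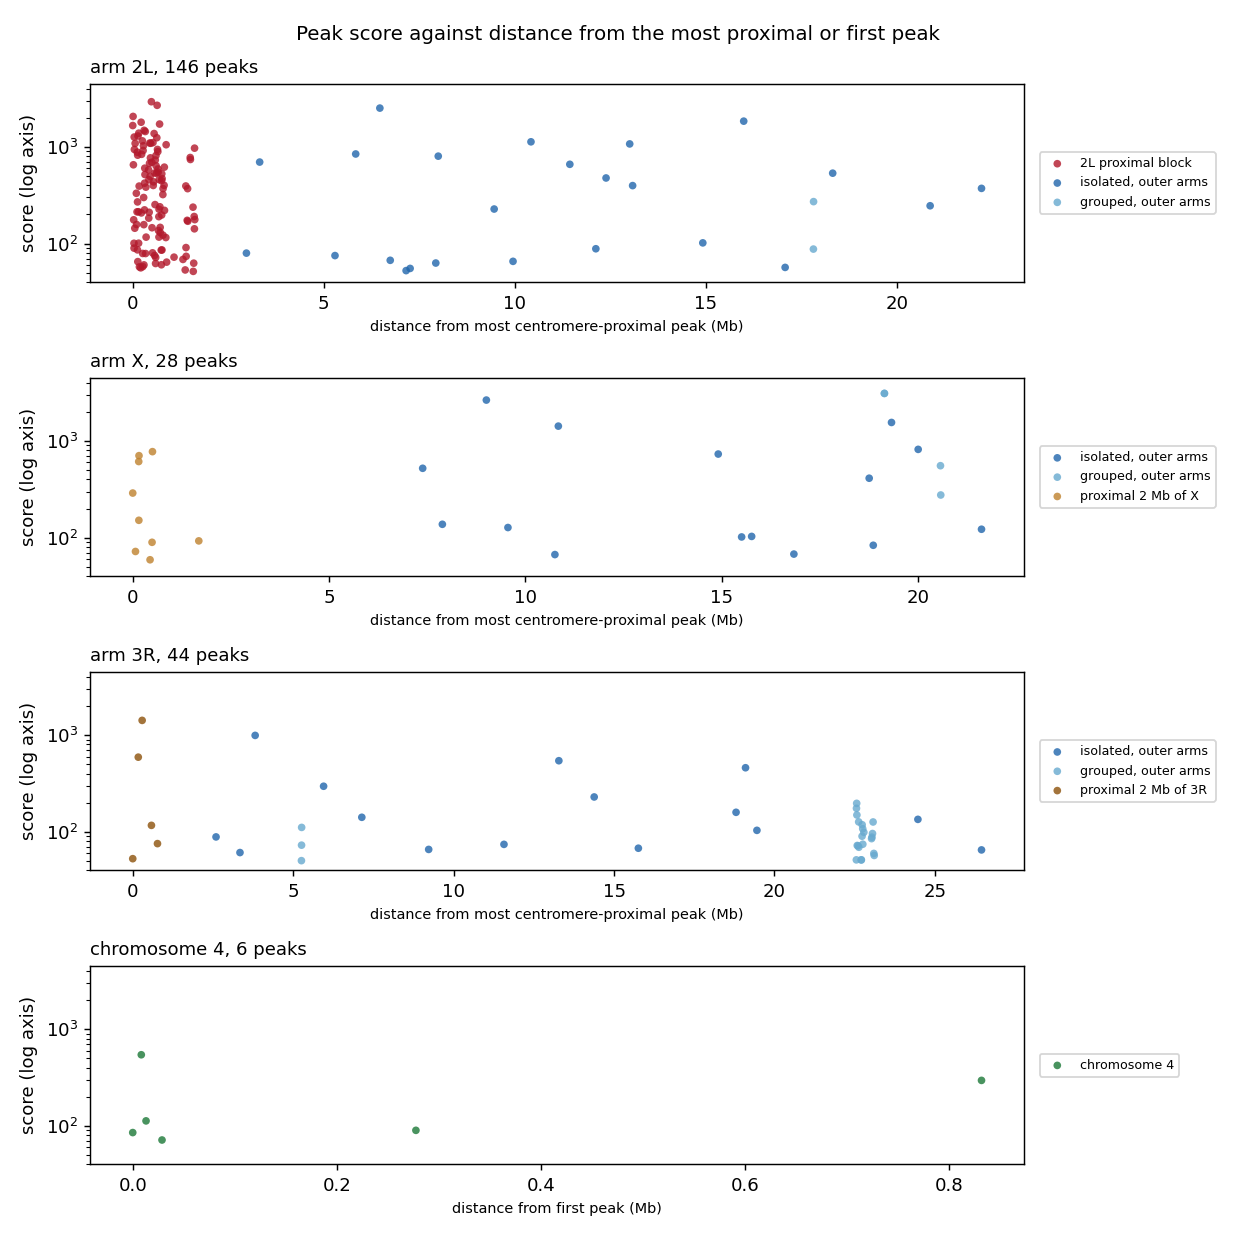
Score of each of the 224 peaks (log axis) against its distance in Mb from the most centromere-proximal peak of its arm, or from the first peak of chromosome 4. The 120 peaks of the 2L block stand in a dense column at short distances, and the 54 isolated peaks are scattered over the outer arms at scores from 52.53 to 2646.08.

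The 2L block was set off by a wide gap on its outer side. Its first peak began at chr2L:21358254-21360403, with a width of 2150 bp and a score of 176.82. The nearest peak on the outer side lay at chr2L:20007207-20008938, with a width of 1732 bp and a score of 79.66. Between them was a stretch of 1.35 Mb without a peak, so the count of 120 did not depend on where within that stretch the border was drawn. Gaps between the outer peaks of 2L reached 2543286 bp, so a gap of this length was not particular to the border. The last peak of the block, and of the arm, lay at chr2L:22980076-22985388, was 5313 bp wide and scored 1659.66. The block held 82.2% of the peaks of 2L (95% Wilson interval 75.2 to 87.5%, which covers the counting of peaks only).

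Within the block, the peaks formed a dense inner part and a sparse outer part. The inner part ran from 22087201 to 22985388, a span of 898 kb with 102 peaks, and 52.3% of its bases lay in peaks. The outer part ran from 21358254 to 21904049, a span of 546 kb with 18 peaks, and 12.4% of its bases lay in peaks. A gap of 183151 bp separated these parts. This division was made after the values were seen. In bins of 100 kb, the 9 bins nearest the end of the arm held 6 to 15 peaks each, with 38.3 to 65.0% of bases covered. The 11 bins beyond them held 0 to 5 peaks each, and 6 of them were empty. The empty ones include the bins from 1700 to 2000 kb, which lie beyond the first peak of the block, in the stretch without peaks.

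**Figure D2:**
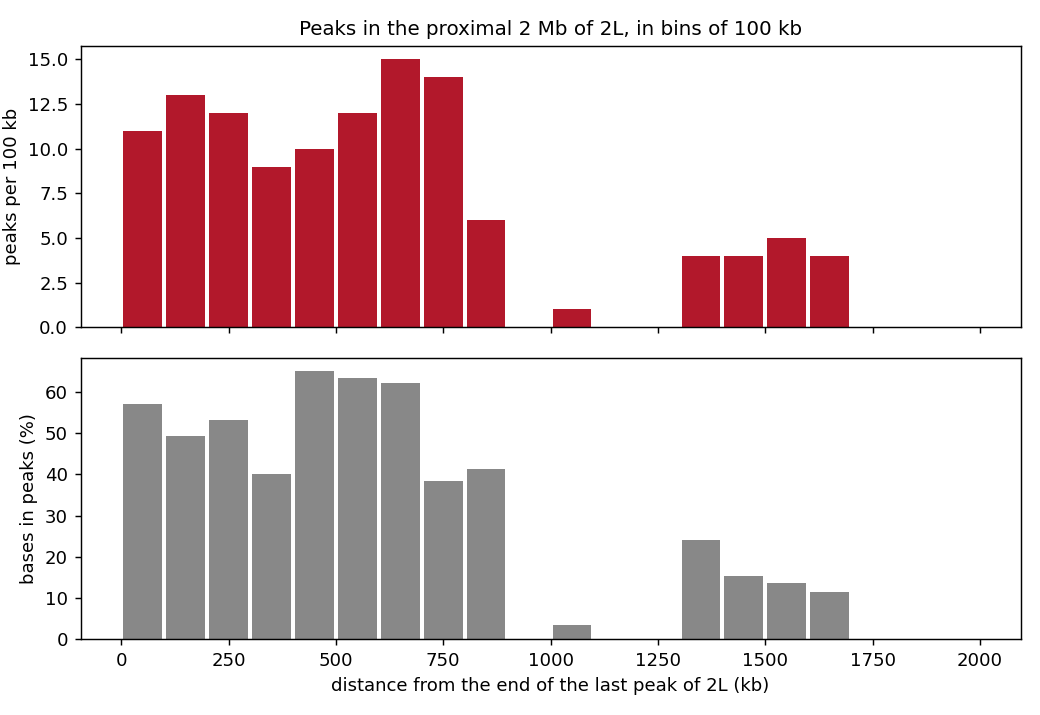
Peaks per 100 kb (top) and the percentage of bases in peaks (bottom) against the distance in kb from the end of the last peak of 2L. Coverage stayed at 38.3% or more over the inner 9 bins and did not exceed 24.1% in any bin farther out.

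The inner part consisted of 2 stretches in which no gap reached 50 kb. One held 57 peaks over 486 kb, from 22087201 to 22572773, with a median score of 446.73. The other held 45 peaks over 353 kb, from 22632220 to 22985388, with a median score of 330.99. A gap of 59446 bp lay between them, and 55.7% and 56.5% of their bases were in peaks. The outer part broke into stretches of 7, 2 and 7 peaks and 2 single peaks. Its pair of peaks, from 21471058 to 21481035, was almost contiguous, with 11 bp between peaks of 4937 and 5030 bp that scored 739.75 and 775.53. These were the peaks of the outer part with the highest scores after 1 of 968.8 in the stretch nearest the border.

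Neighbouring peaks of the block were often nearly adjacent. The median of its 119 gaps was 1617 bp (interquartile range 233.5 to 5326 bp), and 36 gaps were under 300 bp. Joining peaks less than 1 kb apart reduced the 120 peaks to 71 regions with a median width of 6382 bp. The widest joined region, at 22841641 to 22871296, took in 7 peaks over 29656 bp.

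The block's peaks were wide and many scored high. The median width was 3891 bp (interquartile range 2134.75 to 6154.5 bp), against 1624 bp over all 4751 peaks. The median score was 350.27 (interquartile range 128.02 to 770.69), against 137.75 over all peaks. A score of 1000 or more was found in 20 of the 120 peaks (16.7%, Wilson interval 11.1 to 24.3%), while 3.22% of the whole list reached it. All 20 lay in the inner part, where the median score was 399.34. The outer part had a median score of 171.97 and a highest score of 968.8.

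The 5 highest-scoring peaks of the block were spread along the inner part. The peak at chr2L:22491050-22498414 scored 2926.75 over 7365 bp. The peak at chr2L:22339296-22349240 scored 2685.85 over 9945 bp, with the next peak 225 bp away. Close to the end of the arm, the peak at chr2L:22968357-22979454 scored 2061.13 over 11098 bp. The remaining 2 were the peak at chr2L:22759800-22766838, which scored 1796.16, and the peak at chr2L:22275978-22284529, which scored 1719.3. Each of the 5 was wider than 7 kb.

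Among the 3 widest peaks of the block, scores ranged from low to high. The widest peak of the block, at chr2L:22087201-22104620, spanned 17420 bp and scored 64.29, and it began the inner part. The second widest, at chr2L:22705016-22718389, spanned 13374 bp and scored 914.93. The third, at chr2L:22922935-22935320, spanned 12386 bp and scored 144.08. Among all 26 peaks of 7 kb or more on the 4 sequences, 6 scored under 150, of which 4 were in the block and 2 were isolated peaks on X. In the whole list it was 22 of 150 such peaks. The cut at 150 was chosen after the values were seen.

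On the arm sequences used here, the proximal regions of X and 3R had no comparable block. Peaks on the Het scaffolds were left out, so this does not describe all DNA near these centromeres. The 9 peaks of X spanned 1684 kb, of which 1.25% lay in peaks, and their scores ran from 59.13 to 775.28. The closest of them were 3 peaks within 9.91 kb, from 21673983 to 21683889, with scores of 704.6, 151.3 and 612.52. The 5 peaks of 3R were 115480 to 285977 bp apart, and their scores ran from 52.76 to 1418.76. On the arms most like 2L, the proximal regions held 190 peaks on 2R and 264 on 3L. Their median gaps of 2428 and 1452 bp lie on either side of the 1617 bp of 2L. Their median widths were 2133 and 2053.5 bp against 3891 bp on 2L, and their median scores 180.43 and 168.83 against 350.27. A score of 1000 or more was found in 5 peaks on 2R (2.63%) and 7 on 3L (2.65%). These shares were below the 3.22% of the whole list, against 16.7% in the 2L block. With 1 pooled list, these differences between arms were not tested.

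The isolated peaks of the outer arms lay far from any neighbour. There were 24 on 2L, 15 on 3R and 15 on X, and the median distance to the nearest other peak was 490266 bp, with a range of 60947 to 2082205 bp. In the block the median distance to the nearest peak was 289.5 bp.

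**Figure D3:**
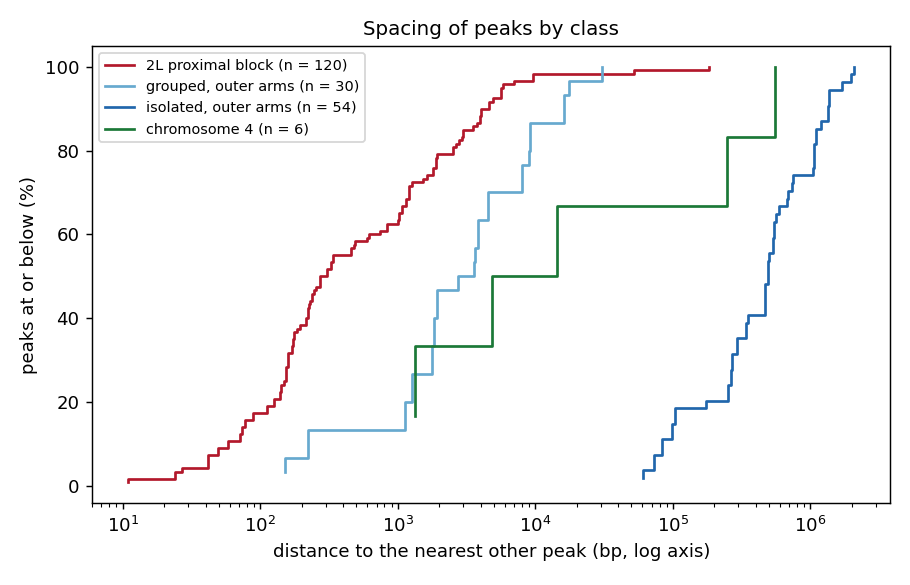
Cumulative percentage of peaks against the distance to the nearest other peak (bp, log axis) for the 2L block, the grouped and isolated peaks of the outer arms and chromosome 4. The curve of the block is centred at a median of 289.5 bp, and that of the isolated peaks, which were chosen by this distance, begins at 60947 bp.

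Most isolated peaks were either under 2 kb or 5 to 7 kb wide. Of the 54, 21 were under 2 kb, 9 were 2 to 5 kb, 22 were 5 to 7 kb and 2 were wider. Of the 9, 1 was between 3.5 and 5 kb, a window chosen after the values were seen. The share of 5 to 7 kb was 40.7% (Wilson interval 28.7 to 54.0%), against 16.7% in the 2L block (11.1 to 24.3%) and 4.95% in the whole list. In the block 49 of 120 peaks were 2 to 5 kb wide, 23 of them from 3.5 to 5 kb. The 22 peaks of 5 to 7 kb held 62.2% of all bases in isolated peaks. They comprised 12 of the 24 isolated peaks on 2L, 8 of the 15 on X and 2 of the 15 on 3R. Arm 3R differed from the other 2 arms, since 7 of its 15 isolated peaks were 2 to 5 kb wide, its largest width class. On 2L this class held 2 peaks and on X it held 0. By the same rule, the outer arms of 2R and 3L held 30 isolated peaks, of which 12 were under 2 kb, 8 were 2 to 5 kb, 7 were 5 to 7 kb (23.3%, Wilson interval 11.8 to 40.9%) and 3 were wider. Of those 8, 1 was from 3.5 to 5 kb, so the scarcity of this width was not particular to 2L, 3R and X. The intervals cover counting only, and no test between these groups was made.

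**Figure D4:**
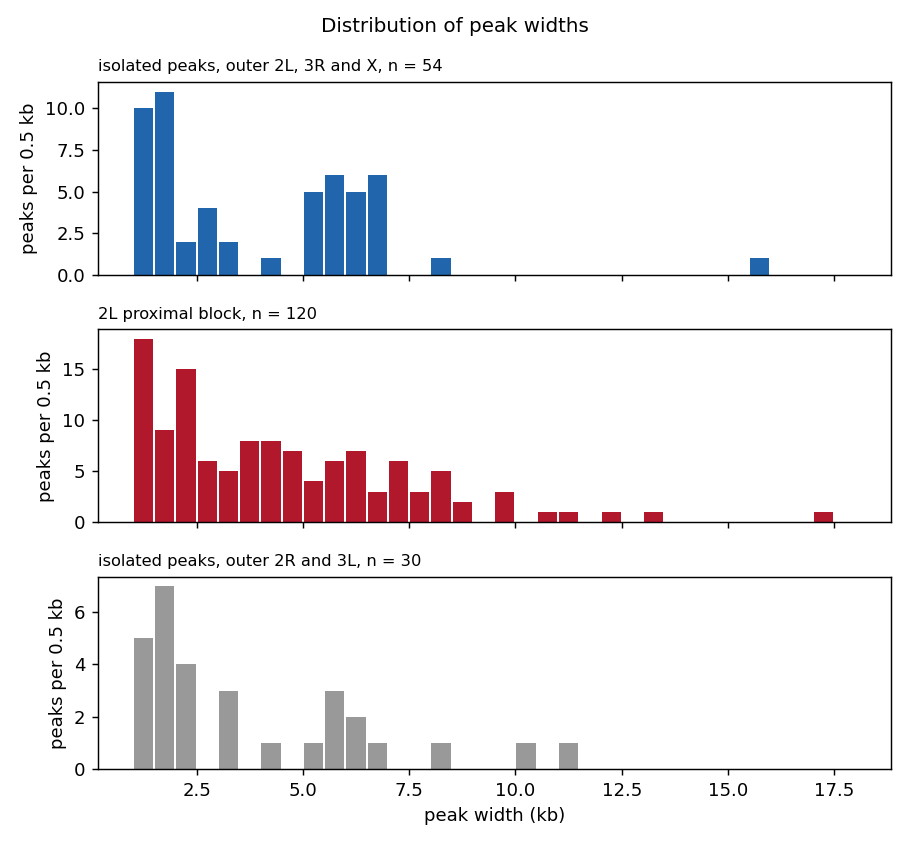
Number of peaks per 0.5 kb of width for the 54 isolated peaks of 2L, 3R and X (top), the 120 peaks of the 2L block (middle) and the 30 isolated peaks of 2R and 3L (bottom). Of the isolated peaks of 2L, 3R and X, 21 are under 2 kb, 9 from 2 to 5 kb and 22 from 5 to 7 kb; on 2R and 3L these counts are 12, 8 and 7, and in the block 27, 49 and 20.

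The isolated peaks of 5 to 7 kb had the high scores of their class. Those of 5 to 7 kb had a median score of 713.91 (interquartile range 487.70 to 1112.94), and those under 5 kb had a median of 88.48 (66.05 to 132.73). All 7 isolated peaks with a score of 1000 or more were in the wide group, 4 on 2L and 3 on X. They made up 13.0% of the isolated peaks, against the 3.22% of the whole list. The share was not particular to these arms, since 4 of the 30 isolated peaks of 2R and 3L (13.3%) also reached 1000. Of those 4, 2 were 5 to 7 kb wide and 1 was wider. The other was 1500 to 2000 bp wide and scored 3100, so high scores were not limited to wide peaks there. On 2L and X, the highest of the 7 was the peak at chrX:12824543-12830499, which scored 2646.08 over 5957 bp and lay 545971 bp from its nearest neighbour. On 2L the peak at chr2L:16513269-16518754 scored 2513.83 and the peak at chr2L:6991368-6997278 scored 1842.26. Next came the X peaks at chrX:2504383-2510279, with 1552.82, and at chrX:10991315-10996770, with 1423.13. The peaks at chr2L:12558726-12564198 and chr2L:9974993-9980542 scored 1126.73 and 1071.58. The first 3 of these 7 scored above 1796.16, the score of the fourth highest peak of the 2L block.

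Among the 10 highest isolated peaks, the remaining 3 scored under 1000. The peak at chr3R:4396110-4399571 was the highest isolated peak of 3R, at 992.35, and with 3462 bp it was the only 1 of the 10 under 5 kb. The peaks at chr2L:17144648-17151373 and chrX:1824846-1831369 scored 843.41 and 818.37 over 6726 and 6524 bp. The lowest score of an isolated peak was 52.53, at chr2L:15828332-15829458, over 1127 bp.

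The 2 widest isolated peaks scored low, unlike most block peaks of 7 kb or more. The peak at chrX:13940380-13955882 spanned 15503 bp and scored 137.56. The peak at chrX:4990050-4998248 spanned 8199 bp and scored 67.7. Both lay at least 490266 bp from any other peak.

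At matched width, the median scores of block and isolated peaks were close in some classes and far apart in others. From 5 to 7 kb the median score was 730.98 in the block (20 peaks), 713.91 in isolated peaks (22) and 733.68 in the whole list (235). From 2 to 3 kb it was 207.43 in the block (21 peaks) and 194.17 in isolated peaks (6). From 1.5 to 2 kb it was 122.19 (9 peaks) and 88.39 (11), and below 1.5 kb it was 78.95 (18) and 65.26 (10). From 3 to 5 kb it was 463.61 in the block (28 peaks) and 295.85 in isolated peaks (3). At 7 kb or more it was 983.12 in the block (24 peaks, 12 of them with a score of 1000 or more) and 102.63 in isolated peaks (2, both under 150). Over all widths the medians were 350.27 and 150.21. Spearman's rho of width and score was 0.68 over the 120 block peaks and 0.76 over the 54 isolated peaks. Within the 22 isolated peaks of 5 to 7 kb it was -0.20. All peaks share the same pooled libraries, and a dependence of the score on width within the peak caller was not tested, so these values describe the list only.

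**Figure D5:**
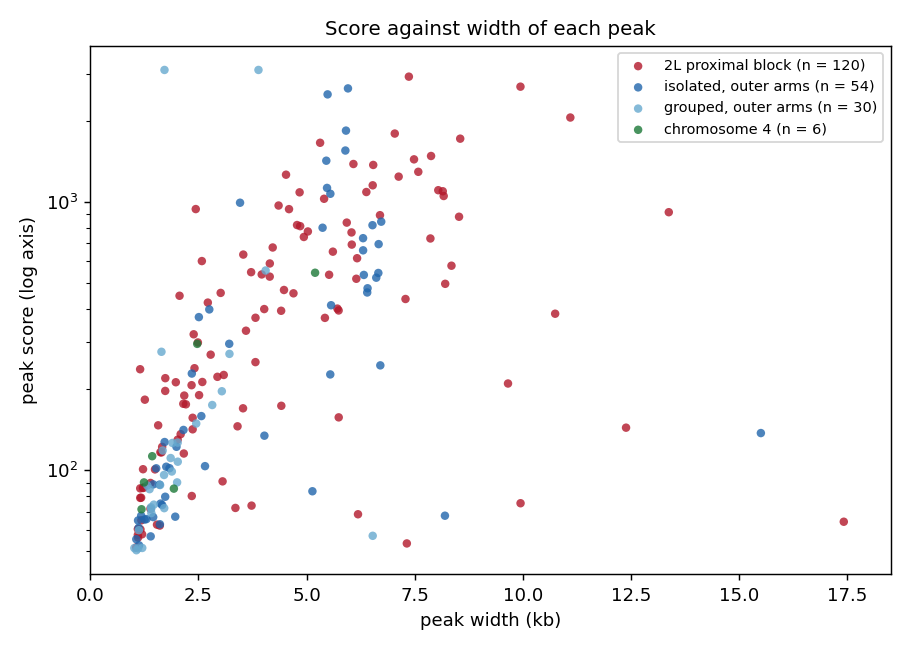
Score (log axis) against width in kb for each peak of the 2L block, the isolated and grouped peaks of the outer arms and chromosome 4. Scores rise with width up to about 5 kb in the block and in isolated and grouped peaks. Median scores are higher still from 5 to 7 kb in block and isolated peaks, and in the block again at 7 kb or more. Chromosome 4 has too few peaks for a trend to be read. Wide peaks with scores under 150 and the 2 X peaks at 3100, which may be a ceiling, stand off this trend of rising scores.

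The order of block and isolated peaks depended in part on the lowest scores. When only peaks with a score of 100 or more were kept, the classes were assigned again. The median score rose to 463.61 in the block and to 404.6 in 40 isolated peaks. Of the 54 isolated peaks of the full list, 18 scored under 100. The 40 therefore include peaks that became isolated only because neighbours with lower scores were dropped. The median width became 4447 bp in the block and 5464.5 bp in isolated peaks, so that isolated peaks were then the wider class by median, in contrast to 2981.5 bp against 3891 bp with all peaks.

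The 30 grouped peaks of the outer arms were mostly on the distal part of 3R. There, 21 peaks between 23133792 and 23694176 formed 3 stretches of 8, 7 and 6 peaks, separated by gaps of 74260 and 239342 bp. They were sparser, narrower and lower in score than the peaks of the 2L block. Peaks covered 7.40% of the 560 kb against 33.1% in the block, and the median gap was 12644 bp against 1617 bp. The median width was 1705 bp against 3891 bp, and the median score 88.08 against 350.27. The first stretch began at chr3R:23133792-23134809, with a score of 51.3, ended at chr3R:23211369-23212779, with 69.26, and held the highest score of the 21, 196.92 at chr3R:23142968-23146008. The middle stretch ran from chr3R:23287040-23288146, with a score of 51.18, to chr3R:23366921-23368805, with 98.92, and its highest score was 118.42 at chr3R:23313629-23315301. The last stretch began at chr3R:23608148-23609517, with a score of 85.02, and its highest score was 126.38 at chr3R:23654732-23656629. It ended in a peak at chr3R:23687648-23694176 that was 6529 bp wide but scored 56.98, whereas no other of the 21 was wider than 3041 bp. The other 63 outer-arm peaks of the 3 arms had a median width of 2652 bp and a median score of 159.12.

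The other grouped peaks formed small sets. Arm 3R had 3 peaks from 5839112 to 5847307 with scores of 50.35, 72.78 and 111.03. Arm 2L had a pair from 5164681 to 5171144 with scores of 271.37 and 87.71. Arm X had a pair from 1251885 to 1262114 with scores of 276.27 and 554.8, and a pair at chrX:2683834-2687721 and chrX:2689560-2691274 with a score of 3100 each. The last value was the highest of the list, shared by 4 peaks in all, and may be a ceiling of the score, so it gives no rank among them and may not be a measured size. The widths of the X pair were 3888 and 1715 bp.

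Chromosome 4 held 6 peaks, most of them near one end. Of its 6 peaks, 4 lay within the 30.2 kb from 28746 to 58985, near the left end of the sequence, and the other 2 were 247599 and 552409 bp from any other peak. The peak at chr4:28746-30677 scored 85.4 over 1932 bp. The peak at chr4:35490-40686 was the widest and highest of the chromosome, with 5197 bp and a score of 544.25, above the median of the 2L block. It was followed by peaks at chr4:42025-43455, with a score of 112.79 over 1431 bp, and at chr4:57802-58985, with 71.56 over 1184 bp. The single peak at chr4:306585-307825 scored 90.08 over 1241 bp, and the last, at chr4:860235-862706, scored 295.68 over 2472 bp.

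The median width of the 6 was 1681.5 bp and the median score 101.44, against 3891 bp and 350.27 in the 2L block and 2981.5 bp and 150.21 in isolated peaks. Peaks covered 1.61% of the 834 kb from the first to the last, compared with 33.1% of the 1627 kb from the first to the last peak of the 2L block, 52.3% of its inner part and 12.4% of its outer part. Measured in the same way, coverage was lower on the outer arms, with 0.51% on 2L, 0.37% on 3R and 0.64% on X. In the proximal regions of 3R and X it was 1.80% and 1.25%. None of the 6 scored 1000 or more. The Wilson interval of that share reached 39.0% and covers the counting of peaks only. In the whole list the share was 3.22%, and 6 peaks are too few to tell these apart. No test was made. With the score minimum of 100, 3 of the 6 remained and their median score was 295.68.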

How the data were processed

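Chromatin immunoprecipitation followed by sequencing gave 1 list of peaks, which its name describes as merged immunoprecipitations against input. Per the submitters' processing notes, the build was dm3 and the tools included Bowtie 0.12.5 and MACS 1.4 and 1.4.2, with no role or order given. The read filters and the treatment of reads with several matches are not given in the sources used here. The score of each peak was deposited by the authors, and its scale is not stated in the list. Its range is that of the score of older MACS versions, a multiple of the negative log of a p-value, and 3100 may be its ceiling. No column of per-sample values existed, so depth is unknown and nothing was tested.

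Width, gaps and nearest distances were computed in Python 3.11.15 with pandas 2.3.3 and numpy 2.4.6, and Wilson intervals with scipy 1.17.1. The classification was tested on simulated peaks. Peaks named were all those of chromosome 4, the ends, 5 highest and 3 widest of the 2L block, the 10 highest, 3 widest and the lowest isolated peaks, the ends and highest of outer-arm stretches of 5 or more, and those beside the 2 Mb border; others were named after their values were seen. Members, classes and rules were chosen with earlier results of these data known. Alternatives were a score minimum of 100, joining peaks less than 1 kb apart, proximal regions of 1 and 5 Mb, isolation distances of 10 and 200 kb, and bases in place of peaks. Gene overlap and sequences, planned only for a dm3 reference, were not analysed here.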

Additional observations from a re-analysis of the deposited data

How the results depend on the processing

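Of 47 alternative values, 41 stayed within the 95% interval of the value they replace, or for counts within 1.5 times. The 6 others concerned the 2L block and chromosome 4. Joining peaks less than 1 kb apart lowered the block's share of 2L peaks to 73.2%, and raised its median gap to 4375 bp and its median width to 6382 bp, since it removes the short gaps by construction. A proximal region of 1 Mb gave a share of 69.9%. A score minimum of 100 raised the block's median score to 463.61 and left 3 peaks on chromosome 4, since it removes low scores by construction. The wide intervals of isolated peaks and chromosome 4 also hold changes of over 1.5 times under that minimum, given in the report. No paired analysis was possible because immunoprecipitations were merged before calling, and for the same reason no replicate could be left out.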

Other observations

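The 22 isolated peaks of 5 to 7 kb fell into 2 sets by width, a division made after the values were seen. In 11 peaks the width was 5135 to 5957 bp (median 5548 bp), in 11 it was 6306 to 6726 bp (median 6524 bp), and none lay from 6 to 6.3 kb. The narrower set had a median score of 1126.73 (range 83.5 to 2646.08) and held all 7 isolated peaks with a score of 1000 or more. The wider set had a median of 543.17 (range 245.88 to 843.41). The split was present on 2L, with 6 peaks in each set and median scores of 1099.16 and 596.9, and on X, with 5 and 3 peaks and median scores of 1423.13 and 732.11. On 3R there were 2 peaks, both in the wider set.

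Peaks that had no part in making this division did not all follow it. Among isolated peaks of 2R and 3L, 4 were 5 to 6 kb wide with a median score of 785.53, 2 were 6.3 to 7 kb wide with a median of 497.34, and 1 of 6170 bp lay between with a score of 250.14. In the 2L block the gap was filled, with 10 peaks below 6 kb, then 6 peaks up to 6.3 kb and 4 wider ones. The order of scores was opposite there, with medians of 593.52, 654.67 and 1120.06. It was also opposite in the proximal 2 Mb of 2R and 3L, where 24 peaks below 6 kb had a median of 646.83, 3 peaks up to 6.3 kb had 685.04, and 12 wider ones had 838.88 and held all 5 scores of 1000 or more in that range. No test of these patterns was made.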
